A study of Mus musculus with 15 samples.

Results

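The sarcoplasmic reticulum calcium pumps and the small membrane peptides that regulate them are described here across hearts with 2 Rbm20 point mutations. The set holds 6 genes of the 40174 gene symbols measured, chosen by name: the pump genes Atp2a1, Atp2a2 and Atp2a3, which encode SERCA1, SERCA2 and SERCA3, and the micropeptide genes Pln, Sln and Strit1, which encode phospholamban, sarcolipin and DWORF. Total RNA was sequenced from left ventricles of C57BL/6 mice aged 2 months. Rbm20 encodes an RNA-binding protein that regulates splicing in heart muscle, and the series studies how 2 of its mutations act in cardiac remodelling.

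The A-line carried the S637A allele and the G-line the S639G allele. The groups were A-line HOM (S637A in both copies), A-line HET (S637A in 1 copy), G-line HOM (S639G in both copies), G-line HET (S639G in 1 copy) and WT. The labels write the genotypes with +/- for HET and -/- for HOM. They name 3 libraries in each of 5 groups, and nothing in them ties a library to an animal of its own. The p-values therefore describe the spread between libraries, which may be technical. For 2 libraries, the deposited columns under A-line HOM replicates 2 and 3 were identical in every symbol to those under WT replicates 2 and 3. This shared pair was used once, as WT, which left 13 distinct libraries, of which 1 was A-line HOM. The labels do not settle which name is right, and each result that involves WT or A-line HOM depends on it. In the tests, the lone A-line HOM library took its spread from the other groups.

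Total counts per library were 17507813 in A-line HOM, 12959087 to 17448328 in A-line HET, 20324529 to 29436407 in G-line HOM, 23714906 to 28121438 in G-line HET and 25279202 to 26549906 in WT. Mitochondrial ribosomal RNA took 15.1% of the counts in A-line HOM, 13.2 to 17.1% in A-line HET, 10.8 to 13.5% in G-line HOM, 15.4 to 16.7% in G-line HET and 20.2 to 23.4% in WT. Levels are given in CPM, scaled counts relative to library size. Rbm20 itself lay between 356.9 and 495.5 CPM and was called in no comparison (edgeR adjusted p = 0.195 to 0.9992). The alleles are point mutations, so this level does not check the labels. The summed level of 8 cardiomyocyte markers was 24650 CPM in A-line HOM, 21150 to 25100 CPM in A-line HET, 23440 to 26180 CPM in G-line HOM, 24620 to 28090 CPM in G-line HET and 22520 to 26500 CPM in WT, and none of the 8 was at 0 in any group. Atrial transcripts, judged by Myl7 at 10 CPM or more, were present in 3 libraries, as described with Sln.

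After each contraction, SERCA pumps return calcium from the cytosol to the sarcoplasmic reticulum, which lets the muscle relax and fills the store for the next beat. SERCA2 is the pump of heart muscle. Phospholamban binds it and lowers its affinity for calcium until kinases of the beta-adrenergic pathway phosphorylate the peptide, and sarcolipin inhibits the pump in atrial and skeletal muscle. DWORF has no inhibitory activity of its own and activates the pump by displacing phospholamban. The ratio of phospholamban to pump is known to set how strongly the heart can be relaxed by adrenergic drive.

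The promoters of both micropeptide genes whose transcripts were lower in G-line HOM than in WT libraries are shown, since these are the 2 members of the set with both a promoter in the table and libraries that did not overlap there. The RefSeq promoter table of GRCm38.p6, an earlier build than the one the counts were aligned to, held 4 of the 6 members. Each sequence runs 5' to 3' in the direction of transcription, with 250 bases before and 50 after the annotated start. Capitals mark the E-box CANNTG, which reads the same on both strands, and TATAAA. Strit1 lies on the minus strand at chr3:63483857-63484156 and Pln on the plus strand at chr10:53337436-53337735.
Strit1: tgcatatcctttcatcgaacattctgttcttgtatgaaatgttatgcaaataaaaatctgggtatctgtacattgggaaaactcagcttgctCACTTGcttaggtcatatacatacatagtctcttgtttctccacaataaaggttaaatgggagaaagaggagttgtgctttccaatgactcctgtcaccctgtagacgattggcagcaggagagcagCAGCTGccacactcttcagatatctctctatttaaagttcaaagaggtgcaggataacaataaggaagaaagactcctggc
Pln: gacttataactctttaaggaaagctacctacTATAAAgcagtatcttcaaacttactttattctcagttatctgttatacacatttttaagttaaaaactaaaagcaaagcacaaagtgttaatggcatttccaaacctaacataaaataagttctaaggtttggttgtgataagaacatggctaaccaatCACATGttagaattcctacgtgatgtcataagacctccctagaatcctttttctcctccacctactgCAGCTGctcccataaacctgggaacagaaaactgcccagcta
The Strit1 promoter held E-boxes at -158 and -31 and no TATAAA, and the Pln promoter held E-boxes at -59 and +9 and TATAAA at -219, counted from the start of transcription. Of the other motifs searched on both strands, AGGTCA stood at -149 in Strit1, AGATAA at -183 in Pln, and CATTCC in neither. The letters CANNTG occurred in 72.31% of 32851 promoters of this length, AGGTCA in 16.26%, CATTCC in 14.66%, TATAAA in 13.62% and AGATAA in 11.18%. Printed motifs did not overlap one another. Such matches describe the letters of these windows only.

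Atp2a2, the heart's pump, was lower in mutant than in WT libraries. It stood at 7226 CPM in the A-line HOM library, 10080, 6547 and 6531 CPM in A-line HET, 4781, 5288 and 6827 CPM in G-line HOM, 9430, 10350 and 8945 CPM in G-line HET, and 14770, 12900 and 14600 CPM in WT. All 10 mutant libraries lay below the lowest WT library. A-line HET was the most uneven group, with 1 library at the level of G-line HET and the others just below the highest G-line HOM library. Means were 7719 ± 2045 CPM in A-line HET, 5632 ± 1066 CPM in G-line HOM, 9576 ± 714.8 CPM in G-line HET and 14090 ± 1032 CPM in WT (SD, n = 3 each).

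In G-line HOM the Atp2a2 level fell by 60.04% relative to WT, a log2 fold change of -1.32 ± 0.17 (SE; edgeR adjusted p = 0.0001024 over 17588 genes). That call held in each of 18 alternative treatments of the data, with log2 fold changes from -1.485 to -1.163. In A-line HET the level fell by 45.23% relative to WT (-0.87 ± 0.17, edgeR adjusted p = 0.006628). This call was lost when the shared pair was counted as A-line HOM, left out or put in both groups. The log2 fold changes there were -0.936, -0.939 and -0.8683 in that order, so the estimate stayed while the call went. With the pair as A-line HOM or left out, WT held 1 library. With it in both groups, the edgeR adjusted p was 0.0788, and 0 of 17920 genes were called in this comparison. In the A-line HOM library the level fell by 48.72% relative to WT (-0.96 ± 0.25, edgeR adjusted p = 0.04501), and 9 of 15 alternatives ended that call, among them the omission of WT replicate 1, 2 or 3 (adjusted p = 0.1009, 0.05374 and 0.1083). With the shared pair as A-line HOM, the edgeR adjusted p of that comparison was 0.9857.

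In G-line HET the Atp2a2 log2 fold change against WT was -0.56 ± 0.17 and missed the threshold (edgeR adjusted p = 0.0611), although the libraries did not overlap. DESeq2 called it (adjusted p = 0.02213). So did edgeR without the libraries with atrial transcripts (adjusted p = 0.0465), with library totals (0.03824) and with only the compared groups (0.001765). In the other 14 of 18 alternatives it stayed uncalled. G-line HOM was lower than G-line HET (-0.77 ± 0.17, edgeR adjusted p = 0.01038), and the libraries of these groups did not overlap. That call was lost only with the shared pair as A-line HOM (adjusted p = 0.07526). The A-line HOM library lay within the range of A-line HET (-0.10 ± 0.24, edgeR adjusted p = 0.9992). The lines were not distinguished either, with A-line HET at -0.31 ± 0.17 against G-line HET (adjusted p = 0.4385) and A-line HOM at 0.36 ± 0.23 against G-line HOM (adjusted p = 0.5831). Without A-line HET replicate 1, the highest of its group, A-line HET was called lower than G-line HET (edgeR adjusted p = 0.04632).

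Mitochondrial ribosomal RNA, too, had its share highest in WT and lowest in G-line HOM. A further fit dropped the mitochondrial and ribosomal RNA genes, and with them Xist and genes of the Y chromosome. There Atp2a2 stood at -1.323 in G-line HOM against WT (edgeR adjusted p = 0.0001157), as in the main fit. The scaling used (TMM) already trims the most extreme genes, so this removal could hardly move the value. Whether the mitochondrial share bears on the Atp2a2 level was not tested. In bulk tissue, fewer cells of a type and less RNA per cell cannot be told apart. Within a library, Atp2a2 counts were also divided by the summed counts of the 8 cardiomyocyte markers. Some of these 8 were themselves called: 2 higher and 1 lower in G-line HOM against WT, 0 higher and 2 lower in A-line HET against WT, 1 higher and 0 lower in G-line HET against WT, and 0 higher and 2 lower in G-line HOM against G-line HET. That ratio was 0.2931 in A-line HOM, 0.4016, 0.2724 and 0.3088 in the A-line HET libraries, 0.1892, 0.2020 and 0.2912 in G-line HOM, 0.3357, 0.4204 and 0.3251 in G-line HET, against 0.5572, 0.5730 and 0.5702 in WT. WT libraries were close to one another and above every mutant library. The log2 difference was -1.34 for G-line HOM against WT, -0.81 for A-line HET against WT, -0.66 for G-line HET against WT and -0.68 for G-line HOM against G-line HET. Each of these 4 had p = 0.1 in a two-sided exact permutation test, the smallest p that 3 against 3 libraries can give, and an adjusted p = 0.125 over the 15 ratio tests made (3 ratios, each in the 5 comparisons without A-line HOM). For A-line HET against G-line HET it was -0.15 (exact permutation p = 0.5, adjusted p = 0.5357). The single A-line HOM library allowed no such test.

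**Figure D1:**
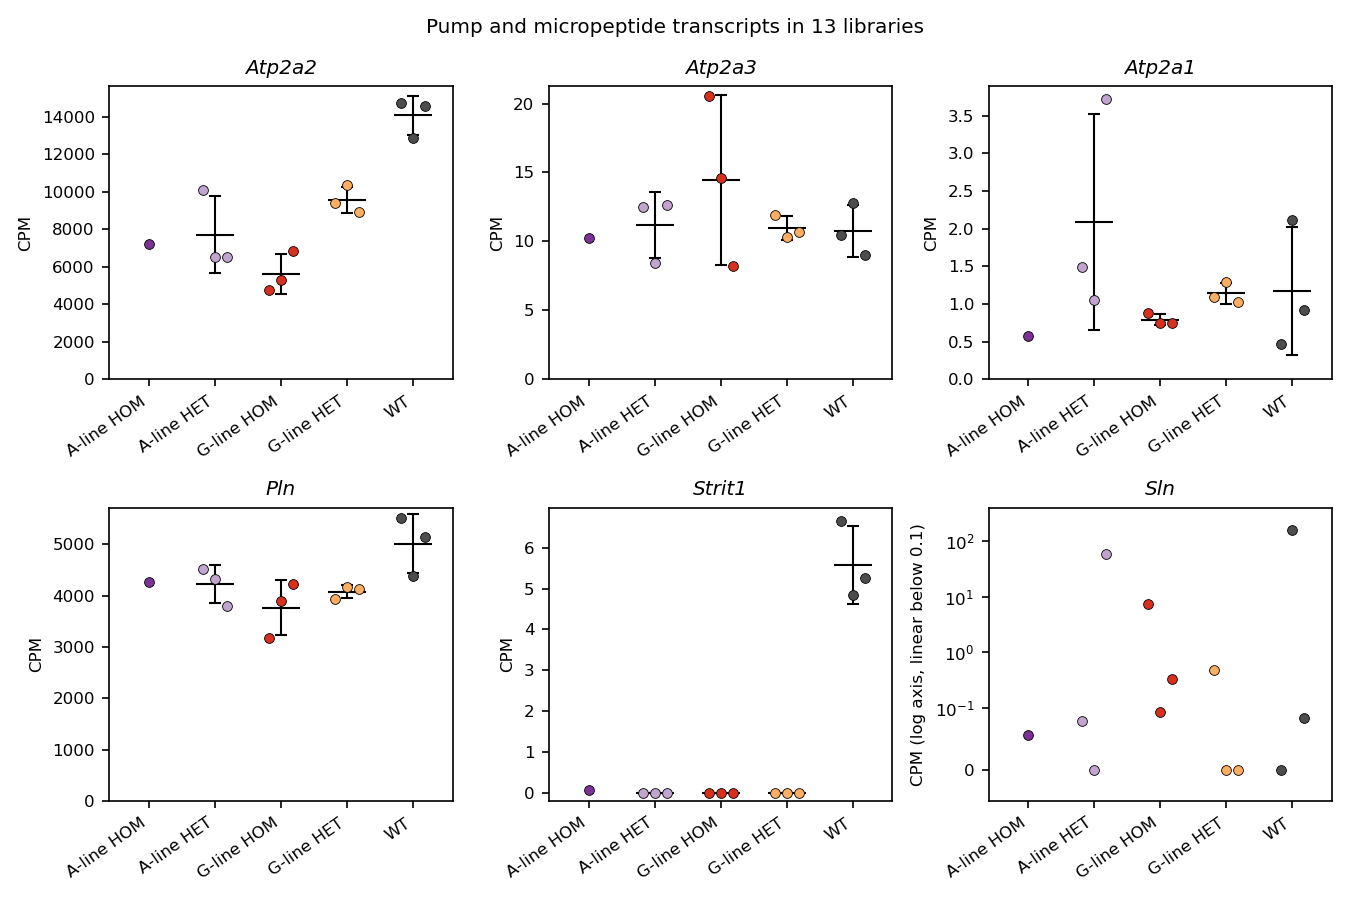
Level of each pump and micropeptide gene in CPM for the 13 distinct libraries, one point per library, with the mean and SD as bars where a group holds 3 libraries (no bars for Sln, whose axis is logarithmic above 0.1 CPM and linear below). Atp2a2 was below WT in every mutant library, and Strit1 was at or near 0 in all 10.

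**Figure D2:**
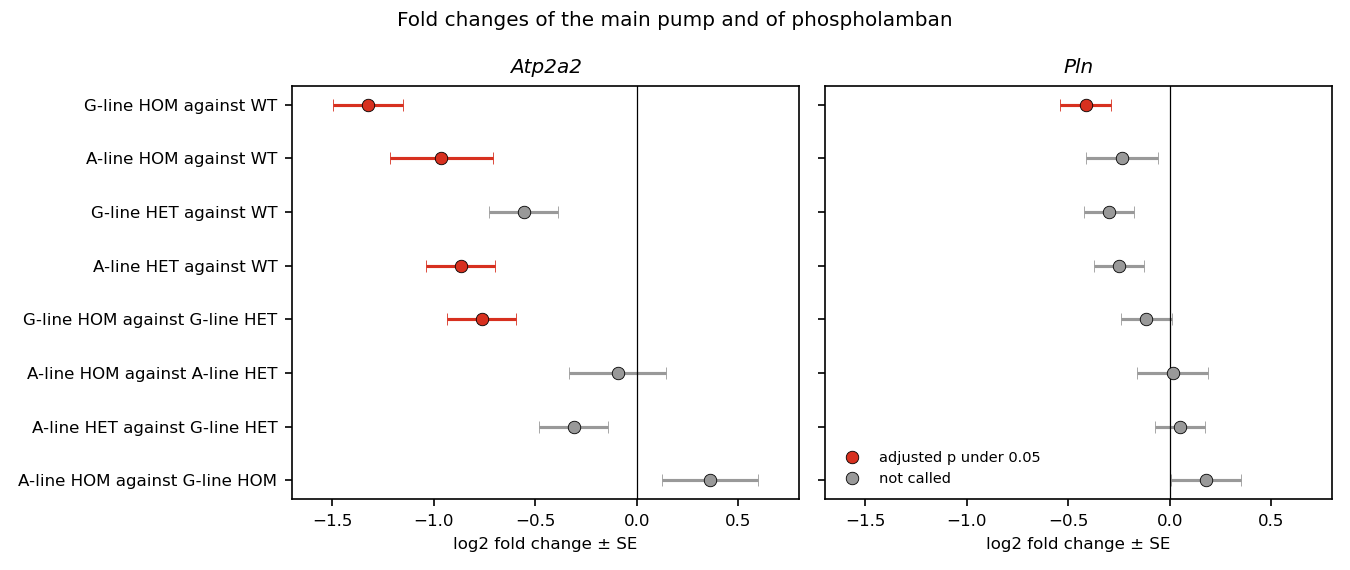
Log2 fold change with its SE for Atp2a2 and Pln in the 8 comparisons (edgeR), red where the adjusted p was under 0.05. Atp2a2 passed in 4 comparisons and Pln in 1, G-line HOM against WT.

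The other pump genes were expressed at a small fraction of Atp2a2. Per kilobase of exon, WT libraries averaged 2318 CPM for Atp2a2, 2.04 CPM for Atp2a3 and 0.3364 CPM for Atp2a1. Atp2a3, the pump of blood, endothelial and some epithelial cells, was at 10.23 CPM in A-line HOM, 12.53, 8.455 and 12.66 CPM in A-line HET, 20.58, 14.61 and 8.218 CPM in G-line HOM, 11.95, 10.32 and 10.70 CPM in G-line HET, and 10.48, 12.79 and 9.048 CPM in WT. G-line HOM held both the highest and the lowest library. The log2 fold change of G-line HOM against WT was 0.43 ± 0.27 (edgeR adjusted p = 0.2754). Without G-line HOM replicate 3, the lowest library, it was called at 0.7111 (adjusted p = 0.01498), and against G-line HET likewise (adjusted p = 0.0301). The summed levels of 5 endothelial markers were 562.5 to 636 CPM in G-line HOM and 631.3 to 755.8 CPM in WT, those of 5 platelet markers 21.25 to 22.65 CPM in G-line HOM and 20.39 to 25.89 CPM in WT, and no gene of either list was called in G-line HOM against WT. The 4 T cell markers summed to at most 1.288 CPM in any library, and the 4 B cell markers to at most 6.329 CPM.

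Atp2a1, the pump of fast skeletal muscle, was at 0.5714 CPM in A-line HOM, 1.497, 1.050 and 3.723 CPM in A-line HET, 0.8758, 0.7539 and 0.7514 CPM in G-line HOM, 1.097, 1.295 and 1.026 CPM in G-line HET, and 0.4724, 2.119 and 0.9173 CPM in WT. No comparison called it (edgeR adjusted p = 0.3588 to 0.9992). The counts were 0.003199 to 0.057% of those of its paralog Atp2a2 in the same library. Reads that fit both pumps could be divided between them in a way the sources used here do not give, and Rabep2 overlaps Atp2a1, so this level is uncertain. The skeletal muscle marker list summed to 10.06 CPM in A-line HOM, 34.52 to 35.7 CPM in A-line HET, 3.298 to 10.54 CPM in G-line HOM, 28.14 to 39.5 CPM in G-line HET and 1.288 to 2.801 CPM in WT. Most of the sum in the HET groups was 1 gene, Tnni2. It was at 32.94, 30.96 and 19.84 CPM in A-line HET and 23.37, 36.87 and 27.99 CPM in G-line HET. Myh1, Myh2, Myh4, Mylpf, Tnnc2 and Actn3 were each at 0.9077 CPM or less in every library. Of the 9 markers, Myh4 and Mylpf were at 0 in G-line HOM and WT, and Myh1 and Myh2 were at 0 in A-line HOM. The part of skeletal muscle RNA in the Atp2a1 level was not tested.

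Pln, the inhibitor, had a smaller fold change against WT than Atp2a2 in each of the 4 mutant groups. It stood at 4261 CPM in A-line HOM, 4522, 4331 and 3804 CPM in A-line HET, 3171, 3891 and 4230 CPM in G-line HOM, 3929, 4169 and 4127 CPM in G-line HET, and 5515, 4378 and 5150 CPM in WT. A-line HET overlapped WT, and the other mutant groups lay below it. Means were 4219 ± 371.8 CPM in A-line HET, 3764 ± 540.9 CPM in G-line HOM, 4075 ± 128.5 CPM in G-line HET and 5014 ± 580.9 CPM in WT (SD, n = 3 each). Pln was called in 1 of the 8 comparisons, G-line HOM against WT, where it fell by 24.94% (-0.41 ± 0.12, edgeR adjusted p = 0.02301). Omission of WT replicate 1 (adjusted p = 0.1058), WT replicate 3 (0.07665) or replicate 1 (0.09754) or 2 (0.05194) of G-line HOM ended the call. It was also lost with only the compared groups in the fit (0.05872), and with scaling by library totals, where the log2 fold change was -0.2518 (edgeR adjusted p = 0.06624). Scaling by library totals moved the median of all genes in this comparison to 0.166. The shared pair as A-line HOM (adjusted p = 0.07765) or left out (0.0557) had the same outcome, with the log2 fold change at -0.5513 and -0.5557.

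The remaining comparisons of Pln did not pass. Against WT its log2 fold change was -0.23 ± 0.18 in A-line HOM (edgeR adjusted p = 0.5305), -0.25 ± 0.12 in A-line HET (0.2591) and -0.30 ± 0.12 in G-line HET (0.1649). Without the libraries with atrial transcripts, G-line HET was called lower than WT (edgeR adjusted p = 0.02165). G-line HOM stood at -0.11 ± 0.12 against G-line HET (adjusted p = 0.5773) and A-line HOM at 0.01 ± 0.18 against A-line HET (0.9992), by edgeR. Between the lines it was 0.05 ± 0.12 for HET (adjusted p = 0.8875) and 0.18 ± 0.17 for HOM (0.7379), by edgeR. Cep85l overlaps Pln on the opposite strand, with 563 to 1244 counts a library, and whether the counting used strand is not given in the sources used here.

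The ratio of Pln to Atp2a2 counts, measured within each library, was higher in mutants than in WT. It was 0.5896 in A-line HOM, 0.4486, 0.6615 and 0.5825 in the A-line HET libraries, 0.6632, 0.7358 and 0.6195 in G-line HOM, 0.4166, 0.4027 and 0.4614 in G-line HET, against 0.3734, 0.3392 and 0.3526 in WT. All 10 mutant libraries lay above the highest WT library, and G-line HOM lay above G-line HET without overlap. Group means were 0.5642 ± 0.1076 in A-line HET, 0.6729 ± 0.05875 in G-line HOM, 0.4269 ± 0.03065 in G-line HET and 0.3551 ± 0.01724 in WT (SD, n = 3 each).

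On the log2 scale the ratio was 0.92 higher in G-line HOM than in WT, 0.65 higher in A-line HET than in WT, 0.26 higher in G-line HET than in WT and 0.66 higher in G-line HOM than in G-line HET. Each of these 4 differences had p = 0.1 in a two-sided exact permutation test, the smallest possible, and adjusted p = 0.125 over the same 15 ratio tests. A-line HET overlapped G-line HET (0.39, exact permutation p = 0.2, adjusted p = 0.2308). Without a test, the A-line HOM library stood 0.73 above WT, 0.08 above A-line HET and 0.19 below G-line HOM, where the log2 difference was -0.19. Per kilobase of exon, in GENCODE M21 gene models, the ratio of Pln to Atp2a2 was 1.3 in A-line HOM, 0.9888 to 1.458 in A-line HET, 1.366 to 1.622 in G-line HOM, 0.8877 to 1.017 in G-line HET and 0.7477 to 0.8231 in WT. Pln transcripts thus outnumbered Atp2a2 transcripts in A-line HOM and G-line HOM by this measure, and Atp2a2 transcripts outnumbered Pln transcripts in WT.

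The ratio of Pln to the cardiomyocyte markers varied less. It was 0.1728 in A-line HOM, 0.1802, 0.1802 and 0.1799 in the A-line HET libraries, 0.1254, 0.1486 and 0.1804 in G-line HOM, 0.1398, 0.1693 and 0.1500 in G-line HET, against 0.2081, 0.1944 and 0.2011 in WT. Mutant libraries lay below WT here too, by log2 differences of -0.22 (A-line HOM), -0.16 (A-line HET), -0.42 (G-line HOM) and -0.40 (G-line HET). The last 3 of these, and A-line HET against G-line HET (0.24), had p = 0.1 in the two-sided exact permutation test and adjusted p = 0.125. G-line HOM overlapped G-line HET (-0.03, exact permutation p = 0.9, adjusted p = 0.9).

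**Figure D3:**
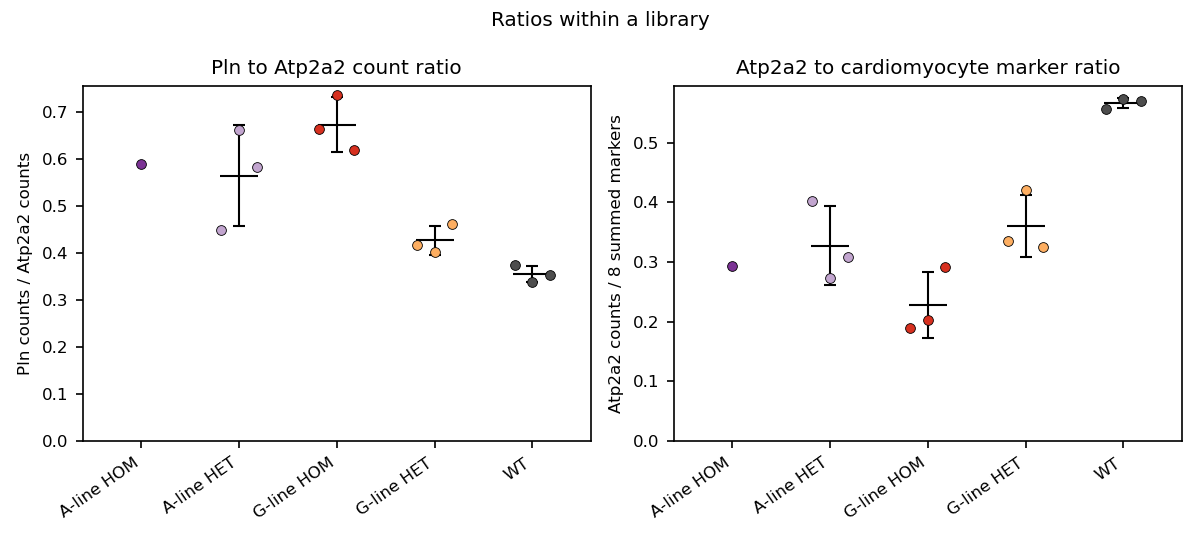
Count ratios within each of the 13 libraries, Pln to Atp2a2 on the left and Atp2a2 to the sum of 8 cardiomyocyte markers on the right, with mean and SD where a group holds 3 libraries. WT had the lowest Pln to Atp2a2 ratio (0.3392 to 0.3734) and the highest Atp2a2 to marker ratio (0.5572 to 0.5730), with no mutant library inside either range.

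Sln, the inhibitor of atrial and skeletal muscle, was near 0 in most ventricles. It was at 0.05714 CPM in A-line HOM, 0.0788, 0 and 57.49 CPM in A-line HET, 7.538, 0.09424 and 0.3287 CPM in G-line HOM, 0.4917, 0 and 0 CPM in G-line HET, and 0, 155.1 and 0.08339 CPM in WT. The 3 high values were in the 3 libraries with Myl7, the atrial myosin light chain, at 10 CPM or more. There the Myl7 level was 240.1 CPM for A-line HET, 45.76 CPM for G-line HOM and 523.9 CPM for WT. The groups overlapped in 7 of the 8 comparisons, the A-line HOM library lay below all G-line HOM libraries, and no comparison called Sln (edgeR adjusted p = 0.2464 to 0.9992). The list of 6 atrial markers, which includes Nppa, a gene that diseased ventricle also expresses, summed to 4367 CPM in A-line HOM, 960.6 to 4097 CPM in A-line HET, 4721 to 8104 CPM in G-line HOM, 987.1 to 3010 CPM in G-line HET and 84.09 to 2364 CPM in WT. Bmp10 was at 0 in A-line HOM, G-line HOM and WT. Not every marker of the list singled out the 3 libraries high in Myl7. Myl4 did, with 68.84 CPM or more there and 19.25 CPM or less elsewhere. Dkk3 reached at least 79.03 CPM there, yet a G-line HOM library outside the 3 had 60.36 CPM. Stard10 had 39.32 and 13.35 CPM in the WT and A-line HET libraries of the 3. Their G-line HOM library had only 1.658 CPM of Stard10, below every WT and HET library. The same 3 libraries stood apart in the sum of 4 fat cell markers, at 7.658 CPM for A-line HET, 7.538 CPM for G-line HOM and 42.08 CPM for WT, where no other library exceeded 0.5142 CPM. Without those 3 libraries, Atp2a2 in G-line HOM stood at -1.272 against WT (edgeR adjusted p = 0.001334) and Pln at -0.3886 (adjusted p = 0.01686).

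**Figure D4:**
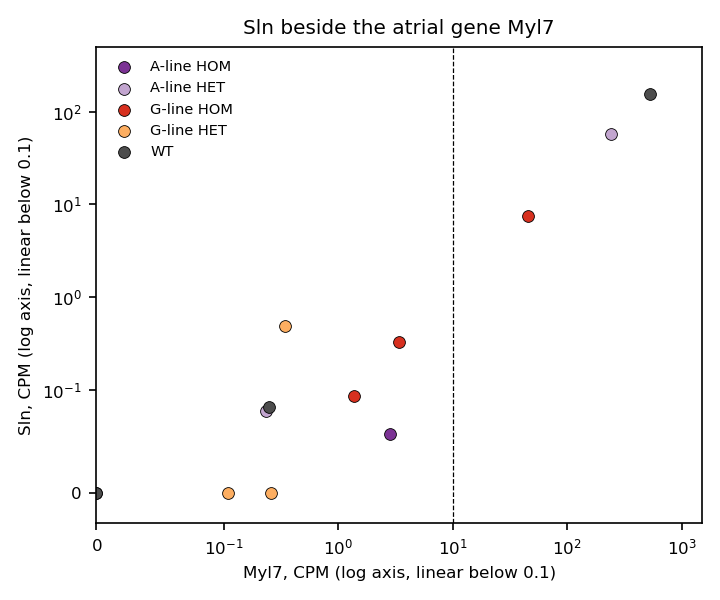
Sln against Myl7 in CPM for the 13 libraries on axes that are logarithmic above 0.1 CPM and linear below, with a dashed line at 10 CPM of Myl7. The 3 libraries right of the line, from A-line HET, G-line HOM and WT, hold the 3 highest Sln values, and an A-line HET and a WT library coincide at 0 for both genes.

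Strit1, the activator, was detected in WT and almost nowhere else. It had 1 count in the A-line HOM library, 0, 0 and 0 counts in A-line HET, 0, 0 and 0 in G-line HOM, 0, 0 and 0 in G-line HET, and 155, 128 and 126 counts in WT. In CPM it was 0.05714 in A-line HOM and 6.657, 4.844 and 5.254 in WT, a WT mean of 5.585 ± 0.9505 CPM (SD, n = 3). With a floor of 3 counts per group in place of 0, Strit1 was at least 90.55-fold lower in A-line HET, at least 138.7-fold lower in G-line HOM and at least 143.2-fold lower in G-line HET than in WT. The A-line HOM library was 97.14-fold lower than WT, with a 95% counting interval of 17.34 to 3846 from 1 count against 409. Floors and intervals cover counting error only.

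Strit1 passed the filter on low counts through its WT libraries alone, so it had to differ once it passed, and its test is not given as a result. The shared pair weighs on this result: under their other label, A-line HOM would hold 1, 128 and 126 counts and WT its own 155. Of the genes that flank Strit1 in the annotation, the long noncoding RNA Gm34240 had no count in any of the 10 mutant libraries, against 77, 24 and 46 counts in WT. Plch1, a phospholipase C gene on the other side, had 0 to 4 counts in every library.

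All 6 members passed the filter on low counts. Strit1, lower than WT in all 4 mutant groups, is left out of the counts that follow, which are of the other 5 members. In G-line HOM against WT, 2 were called lower (Atp2a2 and Pln) and 0 higher, where 26.4% of the 17588 genes tested were called, 13.1% higher and 13.3% lower. In A-line HOM against WT, 1 was called lower (Atp2a2), beside 4.68% of all genes, 2.82% higher and 1.86% lower. In A-line HET against WT, 1 was called lower (Atp2a2), beside 7.96% of all genes, 3.99% higher and 3.97% lower. In G-line HET against WT, edgeR called 0, with 2 at an unadjusted p under 0.05 and 1 called by DESeq2, beside 7.52% of all genes called by edgeR, 3.97% higher and 3.54% lower. These 4 comparisons share their WT libraries. G-line HOM against G-line HET called 1 member lower (Atp2a2), beside 14.6% of all genes.

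In the other 3 comparisons neither edgeR on all 13 libraries nor DESeq2 called any of the 5. In A-line HOM against A-line HET, edgeR called 0.0227% of all genes and DESeq2 called 25 genes, and 813 genes, Atp2a1 the 1 member among them, had an unadjusted edgeR p under 0.05. In A-line HET against G-line HET, edgeR called 0.0284% and DESeq2 252 genes, with 2331 genes and 0 members under the unadjusted threshold. In A-line HOM against G-line HOM, edgeR called 0.0398% and DESeq2 185 genes, with 2070 genes and 0 members under it. Atp2a2 was called in A-line HET against G-line HET without A-line HET replicate 1.

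Genes that work beside the pump were taken as 4 lists. Of 18 genes of release and storage in the sarcoplasmic reticulum, 4 were called higher in G-line HOM than in WT and 7 lower (beside 13.1% and 13.3% of all genes), with a median log2 fold change of -0.137 beside 0.007 for all genes. Higher were Casq1, Fkbp1a, Casq2 and Sri. Lower were Tmem38a, Hrc, Trdn, Tmem38b, Jph1, Calr and Ryr2, the last being the cardiac calcium release channel. Casq1, the calsequestrin of skeletal muscle that buffers stored calcium, was at 298.5 ± 56.65 CPM in G-line HOM and 11.17 ± 4.56 CPM in WT (SD, n = 3 each; log2 fold change 4.74 ± 0.32, edgeR adjusted p = 1.164e-05). Tmem38a, a potassium channel of the sarcoplasmic reticulum that balances charge during calcium release, was at 157.4 ± 16.71 CPM in G-line HOM and 352.6 ± 18.36 CPM in WT (-1.16 ± 0.13, edgeR adjusted p = 4.027e-05). Fkbp1a, which encodes a protein bound to the release channel, was at 75.96 ± 4.177 CPM in G-line HOM and 47.84 ± 1.235 CPM in WT (0.67 ± 0.09, edgeR adjusted p = 0.0001173). Against WT, A-line HOM had 1 gene of the list higher and 2 lower, A-line HET had 1 higher and 5 lower, and G-line HET had 2 higher and 1 lower, beside 4.68%, 7.96% and 7.52% of all genes called in that order.

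Among 9 other micropeptides and partners of SERCA, 2 were higher and 1 was lower in G-line HOM against WT (median -0.076), a share near the 26.4% of all genes. The gene 1810037I17Rik, which encodes the pump inhibitor another-regulin, was at 34.56 ± 1.805 CPM in G-line HOM and 23.39 ± 1.148 CPM in WT (SD, n = 3 each; 0.56 ± 0.09, edgeR adjusted p = 0.000398). It was also called higher in A-line HET (0.38 ± 0.09, adjusted p = 0.01842) and G-line HET (0.52 ± 0.09, adjusted p = 0.003201), and not in A-line HOM (0.25 ± 0.13, adjusted p = 0.3015). S100a1, whose protein binds the pump and the release channel, was higher (0.31 ± 0.10, edgeR adjusted p = 0.03409), and Canx, a chaperone of the endoplasmic reticulum, was lower (-0.43 ± 0.10, adjusted p = 0.004479). Of this list, A-line HOM had 0 higher and 1 lower, and A-line HET and G-line HET each had 1 higher and 1 lower, beside 4.68%, 7.96% and 7.52% of all genes.

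Of 18 genes that set the phosphorylation of phospholamban, 1 was called higher and 8 lower in G-line HOM against WT (median -0.362), beside 13.1% of all genes higher and 13.3% lower. The gene called higher, Prkar1a, a regulatory subunit that holds protein kinase A inactive, was at 720.8 ± 126.6 CPM in G-line HOM and 362.5 ± 32.52 CPM in WT (SD, n = 3 each; 0.99 ± 0.14, edgeR adjusted p = 0.0002108). Camk2a, a calcium/calmodulin kinase gene, was lower (-0.73 ± 0.13, edgeR adjusted p = 0.0007918), as was Akap7, an anchor for protein kinase A (-0.69 ± 0.13, adjusted p = 0.0013). The others called lower were Prkar2a, Ppp1r1a, Hspb6, Prkaca, Prkacb and Adrb1, the last being the main beta-adrenergic receptor of heart muscle. Of these 18, A-line HET had 2 higher and 1 lower and G-line HET 1 higher and 0 lower, each against WT. Beside them, 7.96% of all genes were called in A-line HET and 7.52% in G-line HET. The single A-line HOM library had a median log2 fold change of the list against WT of -0.192, beside -0.015 for all genes.

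Of 12 genes of other calcium entry and removal, 11 passed the filter, and 1 was higher and 4 were lower in G-line HOM against WT (median -0.134), beside 13.1% of all genes higher and 13.3% lower. Mcu, the mitochondrial calcium uniporter, was at 6.853 ± 1.105 CPM in G-line HOM and 11.81 ± 0.7247 CPM in WT (SD, n = 3 each; -0.79 ± 0.18, edgeR adjusted p = 0.004725). Cacna2d1, a subunit of the L-type calcium channel, was lower (-0.81 ± 0.22, edgeR adjusted p = 0.01758), and Atp2b3, a plasma membrane calcium pump, was higher at a low level (1.72 ± 0.48, adjusted p = 0.01745). The remaining calls were Atp2b2 and Cacnb2, both lower. Here A-line HET had 0 higher and 1 lower and G-line HET 1 higher and 1 lower, beside 7.96% and 7.52% of all genes. The single call among 11 in A-line HET is near the share of all genes. In the A-line HOM library the median log2 fold change of the list against WT was -0.243, beside -0.015 for all genes. Genes of the list went both ways there, from -0.83 for Atp2b2 to 2.49 for Atp2b3, which was at 3.257 CPM in that library.

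Across the 13 libraries, the genes whose log2 CPM ran most nearly parallel to each member among 12385 genes are given by Pearson's r, as a description in which libraries share scaling and depth. For Atp2a2 these were Decr1 and Sord (both r = 0.991), Aldh6a1 (0.989), Stard7 (0.987) and Etfdh (0.986). For Pln they were Rfwd3 (0.966), Bhlhb9 (0.964), Prpf8 (0.949), Pitrm1 (0.942) and Paqr9 (0.941). Strit1 ran closest to Slc7a1 (0.984), Cpox (0.977), Myh7b (0.976), Slc25a16 (0.955) and Tmem245 (0.946). Sln ran closest to Pkhd1l1 (0.975), Myl4 (0.964), Mybphl (0.954), Tmem163 (0.95) and Myl7 (0.945), where the highest values were those of the 3 libraries with atrial and fat cell transcripts. The highest r was 0.932 for Atp2a3, with Lyl1, and 0.817 for Atp2a1, with Nap1l5.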

How the data were processed

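Illumina TruSeq total RNA libraries were made from DNase-treated TRIzol extracts of left ventricle (per the labels' protocols). The submitters' processing notes name bcl2fastq 2.20.0.422, Trimmomatic 0.39 and STAR 2.7.4a with mm39 (GRCm39). The values are whole-number counts for each gene symbol, unnormalized, as the authors deposited them. How reads were counted (program, annotation, strand) is not given in the sources used here.

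Genes with at least 0.422 CPM (10 counts in the median library) in 3 libraries and 15 counts in all were kept, 17588 in number. One edgeR 4.0.16 model (R 4.3.3) of the 13 distinct libraries, with TMM scaling, a mean per group and 8 residual degrees of freedom, gave two-sided quasi-likelihood F tests, adjusted by Benjamini-Hochberg over all genes at a threshold of 0.05. Common biological variation was 17.1%. CPM values were computed here. Ratios were compared by exact permutation over libraries (scipy 1.17.1). The fit was tested on simulated data. The members, gene lists, marker lists and tests were chosen with earlier results of these data known. All 6 members are named. In each pathway list the up to 3 called genes of smallest adjusted p in G-line HOM against WT have their values given, and the other called genes were named after their values were seen. For each member up to 5 genes of highest r with a mean of at least 1 CPM are named.

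Alternatives were DESeq2 1.42.0, its size factors (RLE), library totals, other filters, fewer groups, a replicate block, removal of mitochondrial and ribosomal RNA, Xist and Y-linked genes, 3 other treatments of the shared pair, removal of the 3 libraries with Myl7 at 10 CPM or more, and leaving out each library.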

Additional observations from a re-analysis of the deposited data

How the results depend on the processing

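Counts of members called by edgeR, here with Strit1 included, were 3 in G-line HOM, 2 in A-line HOM, 2 in A-line HET and 1 in G-line HET against WT and moved with several choices. Strit1 had to differ once it passed the filter. Without Strit1 the counts against WT were 2 in G-line HOM, 1 in A-line HET and 0 in G-line HET. The shares of all genes called were 26.4%, 7.96% and 7.52% in that order. The count in the lone A-line HOM library against WT also included Strit1. Its value without Strit1 is given above, beside the share of all genes called. With the shared pair as A-line HOM, WT held 1 library. Atp2a2 then stood at -1.391 in G-line HOM, -0.936 in A-line HET and -0.6251 in G-line HET against WT. In that setting 0 members were called in G-line HOM against G-line HET, beside 1251 of 17588 genes. In A-line HOM against G-line HOM the count was 1, beside 1701 genes. With the pair left out, WT and A-line HOM held 1 library each, and Strit1 failed the filter. Atp2a2 then stood at -1.395 in G-line HOM, -1.035 in A-line HOM, -0.939 in A-line HET and -0.6309 in G-line HET against WT. With the pair in both groups the counts of members were 0 in A-line HOM, A-line HET and G-line HET against WT. Of all 17920 genes, 0, 0 and 439 were called in these comparisons, so the counts in the A-line groups are not particular to the members. In A-line HOM against G-line HOM the count was 1, beside 2285 genes. In A-line HOM against WT the count was 1 with RLE size factors, without a filter beyond 1 count, and without the libraries with atrial transcripts. In G-line HET against WT it was 2 with DESeq2, library totals, only the compared groups, or without the atrial libraries. All genes called there were 1853 and 1222 of 17588, 2200 of 16517 and 1472 of 16813 in that order. In A-line HET against WT the count was 1 without the atrial libraries, beside 651 of 16813 genes. Without the atrial libraries Strit1 failed the filter. The calls against WT were then Atp2a2 in the A-line groups, and Atp2a2 and Pln in the G-line groups. With RLE size factors or no filter, the call lost in A-line HOM was that of Atp2a2. Leaving out one library at a time gave 1 to 4 in G-line HOM, 0 to 0 in A-line HOM, 1 to 2 in A-line HET and 0 to 1 in G-line HET against WT, 1 to 2 in G-line HOM against G-line HET and 0 to 1 in A-line HET against G-line HET. Without WT replicate 1, 2 or 3, Strit1 passed in too few libraries to be tested. Leaving out one library at a time, 17141 to 17528 genes were tested. Of all genes, 3284 to 4759 were called in G-line HOM, 622 to 2038 in A-line HET and 515 to 1155 in G-line HET against WT. In G-line HOM against G-line HET 1168 to 2796 were called, and in A-line HET against G-line HET 0 to 607. The 1 member in A-line HET against G-line HET was called in the fit with 607.

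Among the fold changes of Atp2a2, Pln and Strit1, signs reversed only where the difference was not called. Pln in G-line HOM against G-line HET was 0.0178 with library totals and 0.001201 without the atrial libraries, and in A-line HOM against A-line HET it was -0.03205, -0.05599 and, leaving out one library at a time, -0.05627 to 0.06654. Pln in A-line HET against G-line HET was -0.002048 to 0.1231 leaving out one library at a time. Atp2a2 in A-line HOM against A-line HET was -0.2032 to 0.1437 leaving out one library at a time, 0.5849 with the pair as A-line HOM and 0.585 with it in both groups. The log2 ratio of Pln to Atp2a2 in A-line HOM against WT was 0.1459 with the pair as A-line HOM, 0.659 with it left out and 0.2197 with it in both. Against A-line HET it was -0.4311 and against G-line HOM -0.6999 with the pair as A-line HOM or in both. For Atp2a2 to markers these values were -0.2845, -0.9268 and -0.3089 against WT, 0.501 against A-line HET and 1.035 against G-line HOM. The cause was not tested.

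The labels do not say whether libraries with the same replicate number belong together. Of 18 pairs of same-numbered libraries 2 correlated above 0.1 (r = -0.266 to 0.149), and in 2 of 18 sets the best match had the same number. The highest r (0.43, 0.352 and 0.3) were among the 3 libraries with atrial transcripts, WT 2, G-line HOM 1 and A-line HET 3. These carry different numbers, so the check cannot exclude pairing. With the replicate block, the count in A-line HOM against WT was 1, and the other counts of members were as without it.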
